A study of Mus musculus with 14 samples.

Results

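The transcripts of embryonic blood were measured in mouse forelimb buds with and without mesenchymal *Smad4*. The 7 genes examined were the alpha-type globins *Hba-x*, *Hba-a1* and *Hba-a2*, the beta-type globins *Hbb-y* and *Hbb-bh1*, the erythroid transcription factor *Klf1* and the red cell anion exchanger *Slc4a1*. They were selected by symbol from the 23284 symbols counted, and all 7 symbols were listed. RNA-seq was done on 14 samples, each holding both forelimb buds of a single NMRI embryo. Wild-type embryos (*Smad4* +/+ *Prx*CreT/+) and mutant embryos (*Smad4* Δ/Δc *Prx*CreT/+) were taken when they had 30 somites (E10.0) or 35 somites (E10.5), with 3 wild-type and 4 mutant embryos per stage. All embryos carried the *Prx*-Cre transgene, which recombines the conditional *Smad4* allele (Δc) in limb bud mesenchyme and not in blood cells, while the second allele of the mutants (Δ) was deleted in every cell. Blood cells of mutant embryos were therefore expected to carry 1 deleted and 1 conditional copy, and those of wild-type embryos none.

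The early mouse embryo is supplied by primitive erythroid cells, which arise in the yolk sac and mature while circulating. They make hemoglobin from embryonic chains: zeta (*Hba-x*) on the alpha side, and epsilon-y (*Hbb-y*) and beta-h1 (*Hbb-bh1*) on the beta side. The adult-type alpha chains (*Hba-a1* and *Hba-a2*) are made alongside zeta and later replace it, and *Hbb-bh1* is known to give way to *Hbb-y* as these cells mature. KLF1 activates globin, heme and membrane genes, and SLC4A1 (band 3) exchanges anions and anchors the membrane skeleton.

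The coding sequences show which of these genes short reads can tell apart. The first 90 coding bases of the 5 globins, from NCBIM37 (mm9) transcripts, are given 5′ to 3′. Capitals mark bases that differ from *Hba-a1* in the alpha-type genes and from *Hbb-y* in *Hbb-bh1*, position by position.
Hba-a1: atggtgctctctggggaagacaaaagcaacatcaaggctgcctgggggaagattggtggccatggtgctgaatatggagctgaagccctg
Hba-a2: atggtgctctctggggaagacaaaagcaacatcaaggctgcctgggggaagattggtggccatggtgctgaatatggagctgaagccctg
Hba-x: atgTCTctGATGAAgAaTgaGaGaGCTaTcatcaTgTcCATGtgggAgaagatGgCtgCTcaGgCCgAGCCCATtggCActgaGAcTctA
Hbb-y: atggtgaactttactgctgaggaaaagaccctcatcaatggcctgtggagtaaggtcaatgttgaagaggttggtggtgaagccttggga
Hbb-bh1: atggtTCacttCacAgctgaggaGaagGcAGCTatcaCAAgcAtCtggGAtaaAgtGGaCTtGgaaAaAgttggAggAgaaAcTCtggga

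*Hba-a1* and *Hba-a2* were identical over this stretch and differed at 1 base of the 429-base coding sequence. *Hba-x* differed from *Hba-a1* at 163 of 429 bases, and *Hbb-y* differed from *Hbb-bh1* at 105 of 444. Among stretches of 50 bases, the read length, all 887 of *Hba-x*, all 612 of *Hbb-y* and all 565 of *Hbb-bh1* occurred at a single place in the genome and in no transcript of another gene. The same held for every stretch of *Klf1* and *Slc4a1*, but for only 60 of 699 stretches of *Hba-a1* (8.58%) and 50 of 547 of *Hba-a2* (9.14%). The counts of the 3 embryonic globins are therefore not shared with a near-identical copy.

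*Hba-a1* and *Hba-a2* were listed at 0 reads in all 14 libraries. The deposited counts held only uniquely mapped reads, and reads that fall in more than 1 gene were set aside. With 3 reads taken as the limit that a count of 0 allows, countable reads of either gene stayed under 0.0881 CPM (reads scaled to a common library size) in every library, which covers counting error only. This limit applies to reads that could be assigned, and the transcript levels of the adult alpha chains were not measured. The adult beta genes *Hbb-b1* and *Hbb-b2* were also listed at 0 in all libraries, although 414 of 795 (52.1%) and 273 of 654 (41.7%) of their stretches were single. What set these counts to 0 was not tested. Of the 7 genes, 5 had reads, and the same 5 passed the filter on low values (at least 1 CPM in at least 3 libraries). They are described from here on.

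Between 34066930 and 61691258 reads per library fell on genes, and the 3 embryonic globins together took 0.247% to 0.49% of them. *Smad4* was at 152 to 169 CPM in the wild-type libraries and at 32.9 to 45.9 CPM in the mutants, with no overlap. In 4 libraries, mutant replicates 4 and 5 at each stage, the ribosomal RNA precursor *Rn45s* took 1.72% to 8.05% of reads, against 0.151% to 0.478% in the other 10. With replicates 1 to 3 alone these libraries are left out, which keeps 2 mutants per stage. The values so obtained are given beside the genotype differences and calls of single genes that they move. In these dissected buds, fewer blood cells and less RNA per blood cell cannot be told apart.

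Per length, *Hbb-y* was the most abundant of the 5 transcripts. The order by CPM per kb was *Hbb-y*, *Hbb-bh1*, *Hba-x*, *Slc4a1*, *Klf1* in all 14 embryos. The length used was that of all annotated exons of a gene together. In CPM alone, *Hba-x* was above *Hbb-bh1* in some embryos, such as mutant replicate 4 at E10.5 (1208 against 927). It was below in others, such as mutant replicate 1 at E10.0 (539 against 834). The place of these 2 genes in the order therefore depended on the length used. In wild-type buds at E10.5 the mean levels were 3044 ± 568 CPM per kb for *Hbb-y*, 1855 ± 387 for *Hbb-bh1*, 1189 ± 134 for *Hba-x*, 16.7 ± 3.27 for *Slc4a1* and 1.89 ± 0.0369 for *Klf1* (SD, n=3). Neighbouring levels overlapped between embryos in the mutants, where *Hba-x* reached 1376 CPM per kb at E10.0 and *Hbb-bh1* began at 1358. Within each embryo the order per kb nevertheless held.

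**Figure D1:**
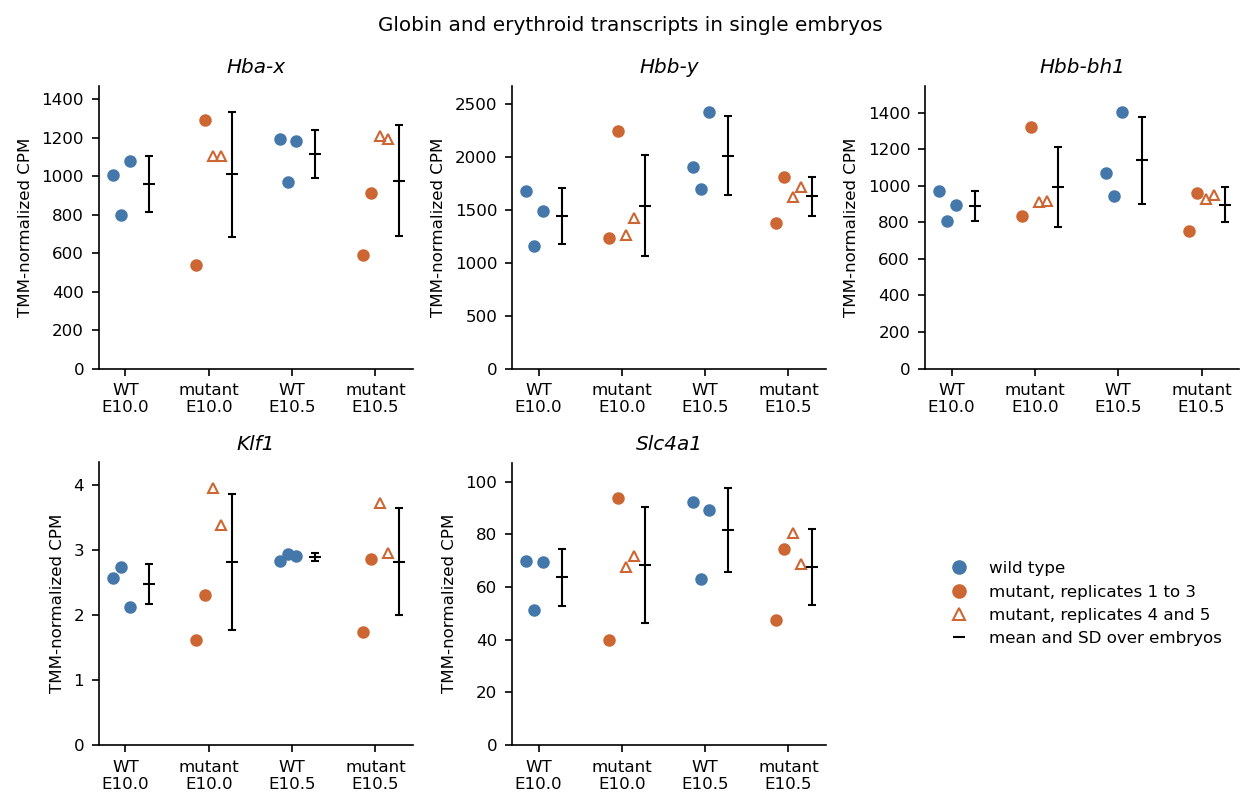
TMM-normalized CPM (vertical axes, from 0) of the 5 measured genes in each of 14 embryos, by genotype and stage; open triangles are the mutant libraries with many *Rn45s* reads, and the bars show the mean and SD. Mutant replicate 1 is the lowest of its group for *Hba-x*, *Hbb-y*, *Hbb-bh1*, *Klf1* and *Slc4a1* at both stages. Wild-type replicate 2 is likewise the lowest of its group at both stages for all of these but *Klf1*. The wild-type embryos at E10.5 lie above those at E10.0 for *Hbb-y*.

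*Hbb-y*, the epsilon-y chain, was higher in wild-type buds at E10.5 than at E10.0, but the difference did not pass the test. At E10.0 the 3 wild-type embryos had 1678, 1157 and 1485 CPM of *Hbb-y*, and the 4 mutants had 1231, 2244, 1261 and 1419 CPM. At E10.5 the wild-type embryos had 1907, 1700 and 2429 CPM, and the mutants had 1372, 1810, 1618 and 1712 CPM. The wild-type embryos of the 2 stages did not overlap, whereas the genotypes overlapped at each stage. The log2 fold change with stage was 0.48 ± 0.219 (SE) in wild-type buds (P=0.0108, FDR=0.101 by edgeR's exact test), just outside the FDR of 0.1 at which genes were called. Without wild-type replicate 3 at E10.5 it was 0.33 (FDR=0.564), and without wild-type replicate 2 at E10.0 it was 0.35 (FDR=0.491), while with replicates 1 to 3 alone it was 0.49 and passed (FDR=0.0585). In the mutants the change with stage was 0.08 ± 0.219 (FDR=0.804), and -0.12 with replicates 1 to 3 alone (FDR=0.803). Between genotypes the difference was 0.10 at E10.0 (FDR=0.84) and -0.31 at E10.5 (FDR=0.59), and with replicates 1 to 3 alone 0.29 (FDR=0.352) and -0.33 (FDR=0.489).

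*Hbb-bh1*, the beta-h1 chain, showed the smallest P of the 5 genes between genotypes. The wild-type embryos had 970, 807 and 892 CPM at E10.0 and 1067, 946 and 1405 CPM at E10.5. In mutants it was at 834, 1319, 910 and 919 CPM at E10.0 and 753, 962, 927 and 947 CPM at E10.5. At E10.5, 2 of the 4 mutants lay below every wild-type embryo, and the other 2 lay just above the lowest, so that the groups overlapped. By edgeR's exact test the log2 fold change at E10.5, mutant over wild type, was -0.34 ± 0.188 (P=0.0186, FDR=0.291), and the change with stage in wild-type buds was 0.36 ± 0.186 (P=0.0237, FDR=0.159). The genotype difference at E10.5 was -0.16 without wild-type replicate 3 at E10.5 (FDR=0.871) and ran to -0.45 when other single embryos were left out, while with replicates 1 to 3 alone it was -0.40 (FDR=0.255). At E10.0 it was 0.16 (FDR=0.622), 0.29 with replicates 1 to 3 alone (FDR=0.246). In the mutants the change with stage was -0.15 (FDR=0.501), and -0.32 with replicates 1 to 3 alone (FDR=0.282). The change with stage differed between genotypes by -0.51 on the log2 scale (FDR=0.797 by edgeR's quasi-likelihood test).

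*Hba-x*, the zeta chain, was lowest in mutant replicate 1 at both stages, and among wild-type embryos in replicate 2 at both stages. The 4 mutants had 539, 1291, 1104 and 1105 CPM at E10.0 and 592, 915, 1208 and 1195 CPM at E10.5. The wild-type embryos had 1008, 797 and 1078 CPM at E10.0 and 1194, 971 and 1181 CPM at E10.5, within the range of the mutants of each stage. The SD over embryos was 326 and 291 CPM in the mutants, at E10.0 and E10.5, and 146 and 125 CPM in wild-type buds. The mutant SD at E10.0 rested on replicate 1, since the other 3 mutants lay between 1104 and 1291 CPM, and the spreads were not compared by a test. The mutant over wild-type difference was 0.07 ± 0.311 at E10.0 (FDR=0.918) and -0.19 ± 0.26 at E10.5 (FDR=0.91), both smaller than their standard errors. The value at E10.5 depended on the libraries. With replicates 1 to 3 alone it was -0.56 (P=0.0305 by edgeR's exact test, FDR=0.282), under the replicate block it was -0.40 (FDR=0.395), and without mutant replicate 1 at E10.5 it was -0.00322 (FDR=1).

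*Slc4a1*, the anion exchanger, overlapped between genotypes and stages. It was at 70.1, 51.3 and 69.6 CPM in the wild-type and 40.0, 93.9, 67.7 and 71.7 CPM in the mutant embryos at E10.0. At E10.5 it was at 92.4, 63.2 and 89.2 CPM and at 47.3, 74.5, 80.4 and 68.8 CPM, respectively. Mutant replicate 1 was again the lowest of each mutant group, and wild-type replicate 2 the lowest of each wild-type group. The genotypes overlapped at each stage. The largest change was with stage in wild-type buds, 0.36 ± 0.226 (FDR=0.37). Between genotypes the difference was 0.10 at E10.0 (FDR=0.864) and -0.27 at E10.5 (FDR=0.794). With replicates 1 to 3 alone the latter was -0.41 (FDR=0.495), and without mutant replicate 1 at E10.5 it was -0.12 (FDR=0.924).

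*Klf1*, the activator of globin genes, was measured from 91 to 150 reads per library, far fewer than the globins. Its levels were 2.57, 2.74 and 2.13 CPM in wild-type and 1.62, 2.32, 3.96 and 3.39 CPM in mutant embryos at E10.0. At E10.5 they were 2.83, 2.94 and 2.91 CPM and 1.74, 2.87, 3.73 and 2.96 CPM, respectively. The wild-type embryos of the 2 stages did not overlap, but the difference of 0.22 ± 0.0773 on the log2 scale did not pass (FDR=0.722), and the SE of genes at a few CPM is too small. The genotypes differed by 0.17 ± 0.22 at E10.0 (FDR=0.805) and by -0.04 ± 0.165 at E10.5 (FDR=0.996). With replicates 1 to 3 alone these differences were -0.32 (FDR=0.412) and -0.32 (FDR=0.594). Under the replicate block, fitted with edgeR's quasi-likelihood test, they were -0.19 (FDR=0.528) and -0.43 (unadjusted P=0.0464, FDR=0.318).

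**Figure D2:**
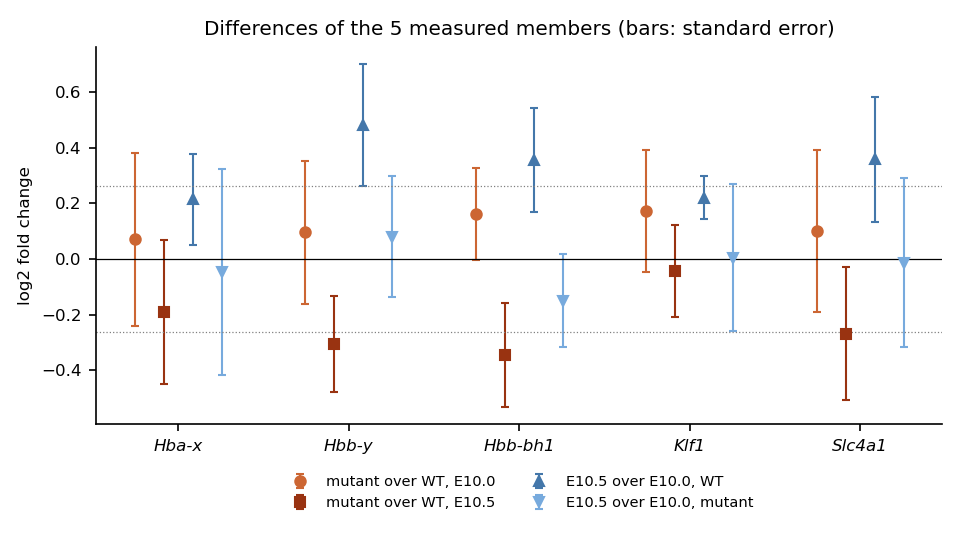
Log2 fold changes (vertical axis) of the 5 measured genes in the 4 comparisons, with standard errors as bars; dotted lines mark a fold of 1.2 either way. In wild-type buds all 5 changes with stage lie above 0, from 0.21 to 0.48, whereas in the mutants they run from -0.15 to 0.08, and none was called.

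No member was called in any of the 4 comparisons or in the interaction. Between genotypes at E10.0 0 of 5 were called, where 6.61% of the 12393 genes tested were (3.33% higher and 3.28% lower in mutants). At E10.5 0 of 5 were called, against 3.73% of all genes (2.19% higher and 1.54% lower). For the change with stage 0 of 5 were called in wild type, against 10.1% of genes (5.39% higher and 4.74% lower at E10.5), and 0 of 5 in mutants, against 19.2% (10.8% higher and 8.4% lower). For the interaction the share over all genes was 0.186%. At an unadjusted P under 0.05, 1 member (*Hbb-bh1*) passed between genotypes at E10.5, and 2 (*Hbb-y* and *Hbb-bh1*) with stage in wild type. For the interaction 1 passed (*Hbb-bh1*), and 0 in the other 2 comparisons. The share of all genes at this unadjusted cut is not given, so these counts are not read as results about the members. The median change of the 5 genes was 0.10 and -0.27 between genotypes at E10.0 and E10.5, and 0.36 and -0.01 with stage in wild type and mutants. Over all genes these medians were -0.0173 to -0.005. A member that missed the threshold was not thereby shown to be alike in the groups, since the standard errors reached 0.371.

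The ratio of the beta-type chains was taken within each library, so that it does not depend on library size. The reads of *Hbb-y* per read of *Hbb-bh1* were 1.73, 1.44 and 1.67 in the wild-type and 1.48, 1.70, 1.39 and 1.55 in the mutant embryos at E10.0. At E10.5 they were 1.79, 1.80 and 1.73 in wild type and 1.82, 1.88, 1.75 and 1.81 in mutants. In the mutants every embryo at E10.5 lay above every embryo at E10.0, while in wild type the highest embryo at E10.0 reached the lowest at E10.5. With stage exchanged within genotype, the ratio was higher at E10.5 by 0.197 on the log2 scale (exact two-sided permutation P=0.00286 over 1400 labellings, 0.0114 after adjustment over 4 tests). The increase was 0.142 in wild type and 0.252 in mutants, and 0.28 and 0.224 within mutant replicates 4 and 5 and within the other mutants. With replicates 1 to 3 alone it was 0.183 and no longer passed (adjusted exact P=0.08). Fewer embryos allow fewer labellings and raise the smallest P possible. This loss therefore cannot show whether the increase depended on mutant replicates 4 and 5. Between genotypes, within stage, the ratio differed by -0.02 (exact P=0.706).

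**Figure D3:**
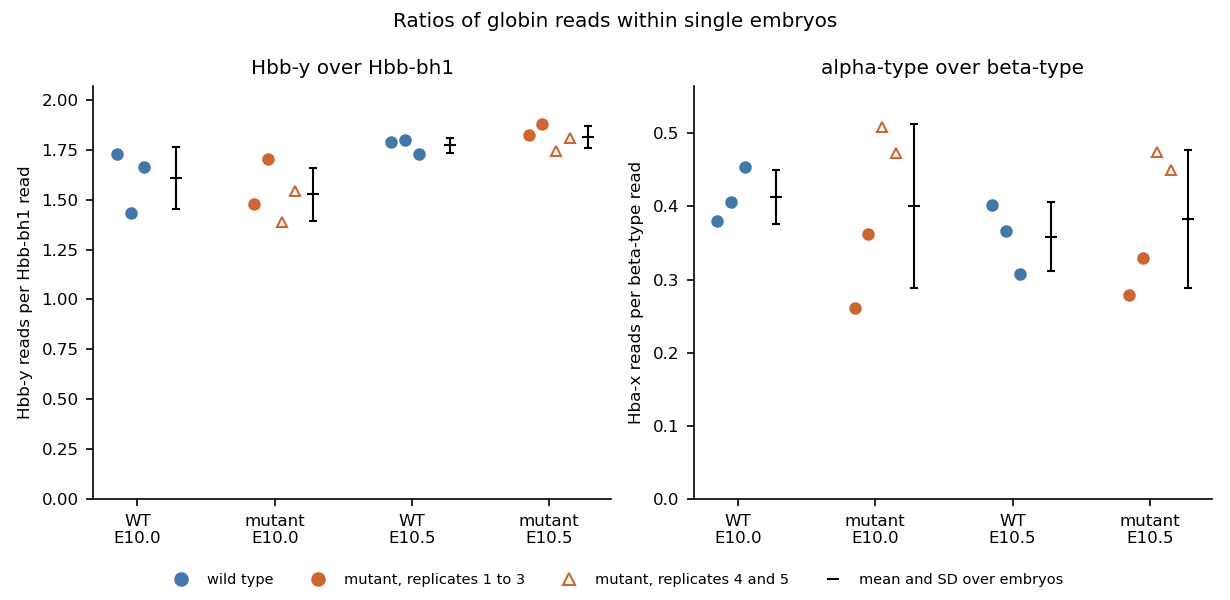
Reads of *Hbb-y* per read of *Hbb-bh1* (left) and of *Hba-x* per read of *Hbb-y* and *Hbb-bh1* together (right) in each embryo, on linear axes from 0, with the mean and SD of each group as bars. The left ratio lies between 1.73 and 1.88 in all embryos at E10.5 and between 1.39 and 1.73 at E10.0, and on the right the open triangles (mutant replicates 4 and 5) are the highest embryos of each stage.

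The reads of *Hba-x* per beta-type read separated the mutant libraries from each other more than the groups. They were 0.381, 0.406 and 0.454 in wild-type and 0.261, 0.362, 0.509 and 0.473 in mutant embryos at E10.0. At E10.5 they were 0.402, 0.367 and 0.308 in wild type and 0.279, 0.33, 0.475 and 0.45 in mutants. Mutant replicates 4 and 5, the libraries with many *Rn45s* reads, were highest at each stage, at 0.473 to 0.509 and 0.45 to 0.475, above every wild-type embryo of their stage. The other mutants were at 0.261 to 0.362 and at 0.279 to 0.33. The part of the library in this ratio was not tested. Neither stage (-0.131 on the log2 scale, exact permutation P=0.396) nor genotype (-0.01, P=0.967) passed. The genotype value averages over mutant libraries of both kinds. At E10.0 replicates 4 and 5 lay above every wild-type embryo and the other mutants lay below, so the value describes neither kind alone.

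With all 14 embryos kept, most erythroid list genes deviated from their group means in a common pattern, and some deviated the other way. After the group means were removed, the mean deviation of the 5 genes over the 14 embryos was used as a profile. Its correlation was 0.974 with *Slc4a1*, 0.955 with *Hba-x*, 0.832 with *Hbb-bh1*, 0.783 with *Hbb-y* and 0.604 with *Klf1*, values that include each gene's own part in the profile. Without mutant replicate 1 of each stage, the 2 embryos farthest from the median, the correlation of *Klf1* was -0.09, and those of the other 4 were between 0.833 and 0.942. The common profile therefore rested on those 2 embryos for *Klf1*. These correlations describe embryos that share libraries and are given with no test.

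The 10 genes whose deviations were most like this profile were *Acp5* (r=0.958), *Hemgn* (0.944), *Grap2* (0.943), *Spnb1* (0.931), *Car2* (0.917), *Slc30a10* (0.916), *Pdzk1ip1* (0.908), *Pklr* (0.904), *Tspan33* (0.902) and *Steap3* (0.894), over 14 embryos. *Hemgn* encodes hemogen, a nuclear protein of erythroid cells, *Spnb1* encodes erythroid beta spectrin, *Car2* encodes carbonic anhydrase II and *Pklr* the red cell pyruvate kinase, and *Steap3* encodes the ferrireductase of erythroid iron uptake. Of these 10, 5 were on the erythroid lists described next. Without the 2 farthest embryos their correlations were 0.706 to 0.891. Of the 47 erythroid list genes that were ranked among 12387 genes, 16 were in the first 50 and 20 in the first 100, with a median correlation of 0.73 against 0.00376 over all genes. These values include the 2 farthest embryos, and they were not taken without them. The correlation was below 0 for 5 of the 47: *Slc11a2* (-0.597) and *Tfrc* (-0.584), an iron transporter and the transferrin receptor, *Lmo2* (-0.379), *Nt5c3* (-0.218) and *Myb* (-0.124).

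**Figure D4:**
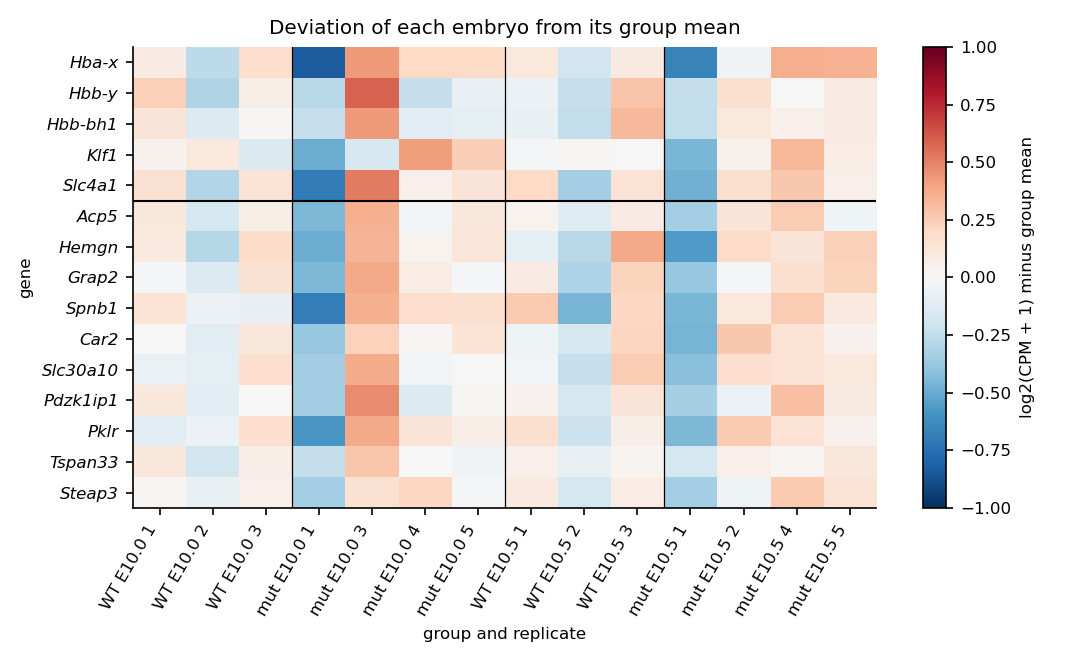
Deviation of each embryo (columns) from its group mean, in log2(CPM + 1), for the 5 measured genes above the line and the 10 most similar genes below it; red is above and blue below the mean of the group. The column of mutant replicate 1 at E10.0 is blue throughout, from -0.23 to -0.83, and that of mutant replicate 3 at E10.0 is red for all but *Klf1*.

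Other genes of the erythroid pathway were described from lists of regulators, heme synthesis, iron uptake, membrane proteins and enzymes. Of all genes tested, 6.61% were called between genotypes at E10.0 and 3.73% at E10.5. With stage, 10.1% were called in wild type and 19.2% in mutants. The counts in these lists are small and are not read as results about the lists. Of 11 erythroid transcription factors tested, at E10.0 0 were higher and 1 lower in mutants, and 1 was higher and 1 lower at E10.5, with medians of 0.09 and 0.02. *Bcl11a*, a repressor of embryonic globin genes that is also active outside blood, was at 41.3, 29.6 and 38.6 CPM in wild-type and at 22.4, 18.5, 25.5 and 22.5 CPM in mutant embryos at E10.0. Its log2 fold change, mutant over wild type, was -0.72 ± 0.169 at E10.0 (FDR=3.58e-07) and -0.44 ± 0.0678 at E10.5 (FDR=0.0084), where the call was lost without wild-type replicate 2 (FDR=0.133). *Bcl11a* was higher at E10.5 than at E10.0 in wild type (0.87 ± 0.153, FDR=1.48e-09) and in mutants (1.15 ± 0.0982, FDR=1.11e-22), with no overlap of the stages. Its deviations were not like the globin profile (r=0.055). *Cbfa2t3*, a corepressor, was higher in mutants at E10.5 (0.68 ± 0.104, FDR=0.0013). *Sox6*, which acts with BCL11A on embryonic globin genes, fell with stage in wild type (-0.42 ± 0.155, FDR=0.0191) and in mutants (-0.54 ± 0.0654, FDR=2e-05). With stage, 1 of the 11 was higher and 1 lower in wild type, and 3 were higher and 2 lower in mutants. *Myb*, a regulator of progenitors, rose in the mutants (0.34, FDR=0.062) and *Zfpm1*, the partner of GATA1, fell (-0.57, FDR=0.0209). Correlations with the globin profile were 0.237 for *Cbfa2t3*, 0.122 for *Sox6*, -0.124 for *Myb* and 0.746 for *Zfpm1*. The wild-type call of *Sox6* was lost without replicate 2 of either stage (highest FDR=0.224). That of *Myb* was lost without mutant replicate 3 at E10.0 or replicate 1 or 2 at E10.5 (highest FDR=0.265), and that of *Zfpm1* without mutant replicate 4 at E10.0 or replicate 1 at E10.5 (highest FDR=0.115).

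Among 15 membrane and skeleton genes tested, 0 were called between genotypes at E10.0 or at E10.5 by edgeR's exact test. At an unadjusted P under 0.05, 0 passed at E10.0 and 2 at E10.5. They were *Rhag*, an ammonium channel of the red cell membrane (-0.46 on the log2 scale, FDR=0.211), and *Aqp1*, a water channel (0.49, FDR=0.201). The share of all genes at this unadjusted cut is not given, so these counts are not read as a result. *Spnb1*, erythroid beta spectrin of the membrane skeleton, was at 23.9, 20.7 and 20.4 CPM in wild-type and at 13.8, 29.6, 26.0 and 25.6 CPM in mutant embryos at E10.0. Mutant replicate 1 lay below every wild-type embryo and the other 3 mutants above, and the difference was not called (0.13, FDR=0.82). The medians of the 15 genes were 0.02 and -0.19 between genotypes at E10.0 and E10.5, and 0 were called with stage in wild type and 1 in mutants (*Aqp1*, 0.49, FDR=0.0299, not called with replicates 1 to 3 alone, FDR=0.152).

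Of 8 heme synthesis genes tested, at E10.0 1 was lower in mutants, and 0 were called at E10.5. *Ppox*, which makes protoporphyrin, was at 17.8, 22.8 and 22.6 CPM in wild-type and at 14.7, 17.8, 13.1 and 13.5 CPM in mutant embryos, a log2 change of -0.51 ± 0.145 (FDR=0.0164). The call was lost with replicates 1 to 3 alone, and without wild-type replicate 2 or 3 at E10.0 (highest FDR=0.211). Correlations with the globin profile were 0.134 for *Ppox*, and 0.142 and 0.132 for *Slc25a38* and *Cat*, described next. *Slc25a38*, a glycine carrier that feeds heme synthesis, fell with stage in wild type (-0.40 ± 0.16, FDR=0.0393) and in mutants (-0.26 ± 0.0814, FDR=0.0958). Its wild-type call was lost without replicate 2 at E10.0 or replicate 3 at E10.5 (highest FDR=0.414), and the mutant call was lost in 13 of 23 alternatives (highest FDR=0.305). No iron uptake gene was called in the 4 comparisons (0 of 6), and among 7 red cell enzymes 1 was called, *Cat* (catalase), which was higher at E10.5 in the mutants (0.28, FDR=0.00884). The change was under a fold of 1.2, and not called, with replicates 1 to 3 alone, without mutant replicate 3 or 5 at E10.0, and without mutant replicate 4 or 5 at E10.5 (lowest log2 change 0.23). *Gata1*, the master regulator of erythroid genes, and *Alas2*, the first enzyme of heme synthesis in red cells, lie on chromosome X and were tested only with that chromosome kept. *Alas2* was at 33.5 and 43.7 CPM in wild type at E10.0 and E10.5 and at 37.6 and 34.6 CPM in mutants, with a change with stage in wild type of 0.38 (FDR=0.138), and *Gata1* was not called in any comparison.

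Promoter sequences of *Hba-x* and *Hbb-y*, an alpha-type and a beta-type embryonic globin gene, are shown from RefSeq (GRCm38.p6), 250 bases before to 50 after the start site. Of the 5 genes measured, *Klf1* also had an entry. Capitals mark the motifs searched on either strand: CACCC (the kind of site KLF1 binds), GATAA (the kind GATA1 binds) and CCAAT.
Hba-x (chr11:32276350-32276649, plus strand): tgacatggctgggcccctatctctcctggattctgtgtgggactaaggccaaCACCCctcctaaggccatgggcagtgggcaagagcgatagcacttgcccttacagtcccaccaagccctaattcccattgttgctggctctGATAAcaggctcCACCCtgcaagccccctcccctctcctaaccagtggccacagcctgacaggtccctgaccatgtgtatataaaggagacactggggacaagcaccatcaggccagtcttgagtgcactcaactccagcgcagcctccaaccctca
Hbb-y (chr7:103853158-103853457, minus strand): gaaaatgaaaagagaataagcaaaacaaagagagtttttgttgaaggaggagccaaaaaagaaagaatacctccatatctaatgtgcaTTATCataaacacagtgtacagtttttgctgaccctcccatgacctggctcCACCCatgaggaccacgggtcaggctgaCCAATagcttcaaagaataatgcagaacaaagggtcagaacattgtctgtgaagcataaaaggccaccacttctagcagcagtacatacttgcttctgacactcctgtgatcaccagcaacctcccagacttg

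*Hba-x* held 2 CACCC, 1 GATAA and 0 CCAAT matches, and *Hbb-y* held 1 of each. The share of all 32851 promoters of this length with a match was 57.5% for CACCC, 25.4% for GATAA and 37.4% for CCAAT, and 4.84% held all 3. The longest run the *Hba-x* and *Hbb-y* promoters shared was 10 bases, GGCTCCACCC, which includes a CACCC match. These matches describe letters in the windows and not bound sites.

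Markers of other cells were counted beside these results. All 5 macrophage genes tested were higher at E10.5 than at E10.0 in wild type and in mutants, with medians of 1.55 and 1.33 on the log2 scale. Of these, *C1qb*, *C1qc* and *Lyz2* passed the filter on low values only through E10.5 libraries. Their rise is therefore in part set by the filter. At E10.0 *C1qc* had 7 to 17 reads per library in wild type and 16 to 27 in mutants. All 9 listed macrophage genes, tested or not, summed to 2.39 to 6.35 CPM in wild type at E10.0 and 11.7 to 14.7 at E10.5. The part of macrophages in the change of *Hbb-y* with stage was not tested. Endothelial markers were summed to 312 to 353 CPM and 313 to 327 CPM in the same groups, and to 330 to 388 CPM and 324 to 371 CPM in mutants. Of 8 endothelial markers, 0 were called with stage in wild type and 2 were lower with stage in mutants, *Kdr* (-0.29, FDR=0.0286) and *Egfl7* (-0.27, FDR=0.0681). The call of *Kdr* was lost in 5 of 23 alternatives (highest FDR=0.586) and that of *Egfl7* in 11 (highest FDR=0.248). Both were lost with replicates 1 to 3 alone. Between genotypes 1 was lower in mutants at E10.0, *Esam* (-0.28, FDR=0.094), a call lost in 18 of 23 alternatives, and 0 were called at E10.5. Limb mesenchyme markers summed to 923 to 1090 CPM in wild type and 740 to 894 CPM in mutants at E10.0, where 3 of 6 were lower in mutants. *Prrx2* (-1.01, FDR=1.07e-11) was called in all 23 alternatives, whereas the call of *Prrx1* was lost in 15 and that of *Tbx5* in 8, both of them without wild-type replicate 3 at E10.0 (FDR=0.48 and 0.542). At E10.5 these markers summed to 1140 to 1190 CPM in wild type and 917 to 979 CPM in mutants, and 2 of 6 were lower in mutants, *Prrx2* (-0.83, FDR=1.03e-07), called in all 23 alternatives, and *Prrx1* (-0.32, FDR=0.0641), lost in 8. The part of the mesenchyme in the globin levels was not tested.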

How the data were processed

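RNA was made into poly(A) libraries and sequenced as single 50-base reads. Per the labels, the authors aligned reads to mm9 with TopHat2 2.0.13 and counted unique reads per gene with HTSeq, without strand, and deposited raw counts for 14 libraries. No library was left out. The 7 genes and the lists were chosen with earlier results of these data known.

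edgeR 4.0.16 (R 4.3.3) was used as in the study: TMM normalization, a filter of 1 CPM in at least 3 libraries, exclusion of 1041 symbols on chromosomes X, Y and M, tagwise dispersion (prior.df 10), and the exact test, with genes called at FDR 0.1 and fold 1.2. Dispersions were estimated over all libraries together, a choice made here, and fitting each pair of groups apart was an alternative. The interaction was tested with the quasi-likelihood test. Fold changes are on the log2 scale, and SE came from log2(CPM + 1), a pseudocount of 1. Ratios of globin reads were compared by exact two-sided permutation within strata, adjusted over 4 tests. The planned ratio of *Hba-a1* and *Hba-a2* to *Hba-x* could not be formed. Similarity of genes was ranked by correlation of deviations from group means. DESeq2 1.42.0 and other settings were tried as alternatives. The tests were tried on simulated data. Named genes were the 7 members, *Smad4*, *Rn45s*, other counted globins, up to 4 called genes with the smallest P per list (otherwise its most abundant genes) and the 10 most similar genes. 1 gene is not reported here and was left out of the lists and the ranking. *Spnb1* is an older symbol of *Sptb*, matched after the counts were seen, and *Ahsp*, *Hbb-bt* and *Hbb-bs* were not among the symbols counted.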

Additional observations from a re-analysis of the deposited data

Results flagged for a closer look

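Of 16 sets of 4 mutant embryos examined for an embryo far from the others, 1 was singled out, and chance alone singles out about 1 in 20. *Hbb-bh1* in mutant buds at E10.5 was lowest in replicate 1, at 753 CPM, against 927, 947 and 962 CPM in the other 3 mutants, a gap of 0.835 of the whole range. The same embryo was lowest of its group for the other 4 measured genes.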

How the results depend on the processing

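The number of members called stayed at 0 between genotypes at E10.0 and at E10.5, with stage in mutants and for the interaction under all alternatives run. With stage in wild type it was 1 with RLE size factors (*Hbb-y*) and 3 with each pair of groups fitted apart (*Hbb-y*, *Hbb-bh1* and *Slc4a1*). It was 2 with replicates 1 to 3 alone (*Hbb-y* and *Hbb-bh1*), and 0 to 2 as single embryos were left out. Over all genes, 668 were called higher and 588 lower of 12393 in the main fit, and 691 and 539 with RLE size factors. Fitted apart these were 960 and 972 of 12118, and with replicates 1 to 3 alone 965 and 861 of 12288. More genes of all kinds were thus called in the last 2 settings. The replicate block gave 1 call (*Hbb-y*, log2 change 0.459, FDR=0.0904), with 872 of all genes called higher and 882 lower. Within a stage, same-numbered wild-type and mutant embryos did not deviate together (mean correlation -0.0814 over 4 pairs). Equal numbers across stages, which the block also joins, were not part of this value. For *Hba-x*, each number found at both stages of a genotype lay on the same side of its group mean at both. For *Hbb-y*, wild-type replicate 1 and mutant replicate 5 changed sides. All other changes of direction were of differences that did not pass. Under the replicate block, the difference between genotypes at E10.0 was -0.245 for *Hba-x*, -0.186 for *Klf1* and -0.0639 for *Slc4a1*, and the change with stage in mutants was 0.0708 for *Hba-x*, -0.0271 for *Klf1* and 0.134 for *Slc4a1*. With replicates 1 to 3 alone, the genotype difference at E10.0 was -0.0541 for *Hba-x* and -0.317 for *Klf1*, and the stage difference in mutants was -0.122 for *Hbb-y*.

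With each embryo left out, the genotype difference at E10.0 ran from -0.0684 to 0.288 for *Hba-x*, -0.00301 to 0.247 for *Hbb-bh1*, -0.143 to 0.22 for *Hbb-y*, -0.0336 to 0.375 for *Klf1* and -0.0911 to 0.298 for *Slc4a1*, and at E10.5 from -0.308 to -0.00322 for *Hba-x*, -0.455 to -0.157 for *Hbb-bh1*, -0.406 to -0.14 for *Hbb-y*, -0.207 to 0.144 for *Klf1* and -0.415 to -0.122 for *Slc4a1*. The change with stage in mutants ran from -0.251 to 0.137 for *Hba-x*, -0.222 to 0.0152 for *Hbb-bh1*, -0.0084 to 0.32 for *Hbb-y*, -0.188 to 0.209 for *Klf1* and -0.196 to 0.18 for *Slc4a1*. The stage difference of the *Hbb-y* to *Hbb-bh1* ratio was 0.157 to 0.224 with each embryo left out (adjusted exact permutation P=0.00571 to 0.04). With replicates 1 to 3 it was 0.183, which did not pass where fewer labellings were possible. The genotype difference of this ratio was 0.023 with replicates 1 to 3 and -0.061 to 0.00635 with each embryo left out. That of *Hba-x* per beta-type read was -0.0732 to 0.087 with each embryo left out. The cause of these changes was not tested. Adding 1 to each count changed no ratio's call. Ratios with *Hba-a1* or *Hba-a2* alone were not run, since both were at 0. *Klf1*, counted from 91 to 150 reads per library, had the fewest of the 5 genes.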

Other observations

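Macrophage markers rose with stage while no globin was called. *Mrc1*, the mannose receptor, was at 0.975 ± 0.626 CPM in wild type at E10.0 and 3.85 ± 1.1 CPM at E10.5 (SD, n=3 each), a log2 change of 1.96 (FDR=7.85e-07). *Csf1r*, the receptor for macrophage growth factor, changed by 1.55 in wild type (FDR=9.98e-06) and by 1.11 in mutants (FDR=0.000142). *C1qb*, a complement chain, changed by 1.46 in wild type (FDR=0.000442) and by 1.42 in mutants (FDR=7.44e-06). It passed the filter on low values only through E10.5 libraries, so its rise is in part set by the filter. Between genotypes at E10.0, 2 of the 5 tested macrophage genes were higher in mutants, against 3.33% of all genes. They were *Mrc1* (1.28, FDR=0.00434) and *C1qc* (1.21, FDR=0.022), and 0 were called at E10.5. Neither call held without wild-type replicate 3 at E10.0, and that of *C1qc* was also lost in 3 of its other alternatives.

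Among 4 platelet markers tested, *Ppbp*, a platelet chemokine, was higher at E10.5 in the mutants (0.60, FDR=0.0232), as were 10.8% of all genes. In the other comparisons 0 were called. The call of *Ppbp* was lost with replicates 1 to 3 alone and without mutant replicate 1 or 5 at E10.5 (highest FDR=0.115). Other globins were rare. *Hbq1b*, a theta-like globin, had 21 to 53 reads per library, *Hbb-bh2* had 0 to 9 and *Hbq1a* had 0 to 3.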
